A study of Mus musculus with 24 samples.

Results

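Of the 147020 open-chromatin peaks in the data, 23193 (15.8%) are described here: narrow intergenic peaks on chromosomes 1 to 19 that lie within 100 kb of an annotated transcription start. A peak was taken where the authors' annotation called it intergenic, with no repeat or CpG island named, where its distance to the nearest start was at most 100 kb in either direction, and where its start and end lay under 1000 bases apart. No measured value entered this choice. The peaks had a median width of 389 bases and lay 1.001 to 99.997 kb from the nearest start, with a median of 25.9 kb. Of them 15249 (65.7%) lay upstream of that start and 7944 downstream. They fell to 8792 nearest genes, of which 3739 had a single such peak and 193 had 10 or more. At the edge of the choice, a peak near Supt20 at 99.997 kb was inside, with 3.05 ± 0.625 CPM in WT, and a peak near Tenm3 at 100.008 kb was outside, with 2.83 ± 1.05 CPM (CPM, counts scaled to a common library size; SD, n = 6). By width, a peak near Lrrc52 spanning 999 bases from start to end was inside and one near Akap11 spanning 1000 was outside.

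The peaks were measured by ATAC-seq, in which a transposase cuts and tags accessible DNA, on NeuN-sorted neuronal nuclei from the striatum of 24 C57BL/6 mice aged 12 months. WT animals carried neither altered allele. Q140 animals were heterozygous for the knock-in labelled Het (Q140) KI, a model of Huntington's disease with an expanded CAG repeat in Htt. Msh3KO animals were Msh3-/-, lacking a DNA mismatch repair gene, and Q140_Msh3KO animals carried the Q140 knock-in on the Msh3-/- background. Each genotype had 3 female and 3 male animals, and animals are named by sex and number, such as Q140 F2. Each peak carries the name of its nearest gene, though it may act on another one.

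Intergenic open chromatin near genes is made up largely of enhancers, short stretches where transcription factors bind and from which they raise the activity of promoters along the same chromosome. Enhancers differ between cell types far more than promoters do, and those of striatal projection neurons lie around genes of dopamine and cAMP signalling, neuropeptides and ion channels. In Huntington's disease these neurons lose the expression of many of their identity genes, and somatic growth of the CAG repeat, which needs Msh3, is thought to drive the process.

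The sorted nuclei carried the accessibility of striatal projection neurons. Summed over promoter peaks of 8 of 9 marker genes with such a peak, SPN (striatal projection neuron) markers such as Ppp1r1b, Drd1 and Pde10a held 211 to 302 CPM in WT and 196 to 252 CPM in Q140. Promoter peaks were present for 1 of 5 astrocyte markers (1.59 to 4.23 CPM in WT, 1.65 to 3.59 in Q140) and 3 of 5 oligodendrocyte markers (6.52 to 9.74 and 6.02 to 11.6). They were also present for 1 of 5 microglia markers (2.17 to 4.34 and 2.23 to 5.43) and 2 of 5 vascular markers (3.65 to 7.31 and 4.64 to 6.72). No peak stood at the promoters of Aqp4, Gfap, Slc1a3, Pdgfra, Cx3cr1, P2ry12, Csf1r or Cldn5. Total counts ran from 4372251 to 11736557 per library, and the intergenic peaks held 10.1% to 11.2% of them, with a median of 15 to 39 counts per peak and library. Counts on X made up 1.47% of the library labelled Q140 F2, while the remaining female libraries had 1.72% to 1.94% and male libraries 1.49% to 1.59%. The 10 highest peaks of the whole table took 12.7% of counts in Q140_Msh3KO M1 and 2.52% to 6.82% elsewhere. Msh3 itself was not used to check the labels, since an open promoter does not show whether the gene is intact. Results that rest on these 2 libraries are also given without them. In bulk nuclei, a change in the share of a cell type and a change in accessibility per nucleus cannot be told apart.

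Although annotated as intergenic, 5689 of the peaks (24.5%) overlapped a gene of the RefSeq GRCm38.p6 table, 3435 of them a long noncoding RNA (lncRNA) gene. Of the peaks, 339 overlapped the window from 250 bases before to 50 after a RefSeq start, and those windows belonged to 303 lncRNA and 34 protein-coding genes. Sequence is shown for 6 peaks that were called in Q140 against WT (edgeR quasi-likelihood test, adjusted p under 0.05) and cover at least 200 bases of an lncRNA start window. They show what a RefSeq start looks like in a peak that the authors' annotation calls intergenic. Whether these starts are used in the sorted nuclei was not tested. The stretch printed is the part of the start window inside the peak, from RefSeq GRCm38.p6, 5′ to 3′ on the strand of the lncRNA. Capitals mark matches to 15 short motifs, searched on both strands: AP-1 as TGANTCA, the E-box in its forms CAGCTG and CAGATG, EGR as GCGNGGGCG, homeodomain as TAATTA, CRE as TGACGTNA, SOX as ACAATGG, POU as ATGCAAA, SP/KLF as GGGCGG, which can overlap EGR, the nuclear receptor half-site AGGTCA, forkhead as TGTTTAC, the T-box half-site GGTGTGA, and the longer MEF2, CTCF core and NFI motifs. The stretches from the 3 peaks higher in Q140 lie at chr6:65525127-65525384 (plus strand, near Tnip3), chr17:62939364-62939617 (minus, near Efna5) and chr3:93597455-93597685 (minus, near S100a10).
LOC108169147: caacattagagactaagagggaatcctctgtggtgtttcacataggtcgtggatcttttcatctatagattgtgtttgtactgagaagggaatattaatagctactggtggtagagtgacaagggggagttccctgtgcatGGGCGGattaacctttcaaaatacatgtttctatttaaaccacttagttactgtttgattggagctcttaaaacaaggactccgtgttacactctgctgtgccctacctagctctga
Gm34179: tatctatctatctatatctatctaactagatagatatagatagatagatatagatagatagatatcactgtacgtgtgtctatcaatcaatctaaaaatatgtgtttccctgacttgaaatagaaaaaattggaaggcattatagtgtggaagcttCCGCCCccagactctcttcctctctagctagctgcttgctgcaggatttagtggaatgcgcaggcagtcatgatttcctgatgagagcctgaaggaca
Gm40093: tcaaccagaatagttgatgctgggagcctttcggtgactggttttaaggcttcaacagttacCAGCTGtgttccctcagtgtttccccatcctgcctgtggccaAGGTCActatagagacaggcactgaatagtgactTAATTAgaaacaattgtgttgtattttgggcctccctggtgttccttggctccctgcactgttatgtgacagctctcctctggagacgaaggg
The stretches from the 3 peaks lower in Q140 lie at chr8:119429513-119429717 (minus strand, near Osgin1), chr19:27312684-27312924 (plus, near Kcnv2) and chr13:54946223-54946485 (minus, near Unc5a).
Gm32006: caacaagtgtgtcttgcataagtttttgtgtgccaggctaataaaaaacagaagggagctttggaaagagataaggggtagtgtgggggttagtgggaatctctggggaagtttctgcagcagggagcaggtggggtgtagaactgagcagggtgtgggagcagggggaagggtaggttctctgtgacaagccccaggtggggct
Gm35268: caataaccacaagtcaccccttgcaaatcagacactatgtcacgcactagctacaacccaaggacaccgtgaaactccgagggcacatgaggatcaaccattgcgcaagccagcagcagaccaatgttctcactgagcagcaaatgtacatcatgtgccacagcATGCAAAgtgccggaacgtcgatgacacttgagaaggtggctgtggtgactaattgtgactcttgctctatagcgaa
Gm31313: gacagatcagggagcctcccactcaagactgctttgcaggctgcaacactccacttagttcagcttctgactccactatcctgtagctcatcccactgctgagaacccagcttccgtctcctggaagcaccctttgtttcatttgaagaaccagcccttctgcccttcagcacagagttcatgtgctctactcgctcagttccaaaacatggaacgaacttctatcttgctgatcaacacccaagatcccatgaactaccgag

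The LOC108169147 and Gm34179 stretches each hold a GGGCGG match, at positions 142 and 157 from the 5′ end, the latter on the reverse strand. GGGCGG occurs in 35.7% of all 32851 RefSeq start windows and in 62 of the 387 windows (16.0%) that overlap one of the intergenic peaks. Gm40093 holds the E-box form CAGCTG at position 63 and the half-site AGGTCA at 105, each found in 16.3% of all windows, and the homeodomain motif TAATTA at 139, found in 5.29%. Gm35268 holds the POU motif at 165, found in 4.63%. None of the 15 motifs is present in the stretches of Gm32006 and Gm31313. GC content ran from 38.6% to 52.7%.

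At the LOC108169147 start, WT animals held 2.15 to 3.19 CPM with a median of 2.52, and Q140 animals 4.02 to 8.26 with a median of 6.16. The groups did not overlap, and the log2 fold change was 1.23 ± 0.18 (SE, adjusted p = 7.4e-06). At the Gm34179 start, 58.0 kb from Efna5, a ligand of Eph receptors in axon guidance, the values were 5.33 to 6.31 CPM in WT and 7.91 to 13.6 in Q140, again without overlap (0.91 ± 0.16, adjusted p = 0.00013). The groups did overlap at the Gm40093 start, with 2.96 to 6.45 CPM in WT and 5.31 to 10.8 in Q140 (0.87 ± 0.17, adjusted p = 0.0003). In the lower direction, the Gm32006 start held 3.08 to 5.73 CPM in WT and 1.62 to 3.02 in Q140 (-0.89 ± 0.18, adjusted p = 0.00057). The Gm35268 start, 9.51 kb from the potassium channel subunit gene Kcnv2, held 14.4 to 21.3 CPM in WT and 8.47 to 13.6 in Q140 (-0.66 ± 0.14, adjusted p = 0.00093). The Gm31313 start, 2.95 kb from the netrin receptor gene Unc5a, held 9.46 to 13.2 and 5.89 to 8.32 CPM (-0.58 ± 0.14, adjusted p = 0.00248). Over all 338 tested peaks on start windows, 14 rose and 23 fell in Q140, which is 4.14% and 6.80%, beside 5.50% and 7.14% of all tested intergenic peaks.

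Most of the intergenic peaks were low. Of the 23193 peaks, 23091 passed the count filter, and 102 did not and were not tested. The median over tested peaks of the WT mean was 3.23 CPM, and 2058 peaks (8.91%) reached 10 CPM in WT, but only 14 reached 50. The median level was 3.30 in Q140, 3.29 in Msh3KO and 3.30 in Q140_Msh3KO. Among the highest were a peak 2.1 kb upstream of Pde1b, a calmodulin-dependent phosphodiesterase abundant in striatal projection neurons, with 67.3 to 122 CPM in WT and a median of 78.2, and a peak 3.9 kb upstream of Per1, a circadian clock gene, with 56.8 to 93.4 CPM. The highest of all, near BC048403, held 477 to 663 CPM in WT and reached 2446 CPM in Q140_Msh3KO M1, the library with the large share in its top peaks. None of the 6 highest was called in any comparison except the Pde1b peak, which fell in Q140 (-0.50 ± 0.16, adjusted p = 0.0388).

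The first comparison, Q140 vs WT, addresses the effect of the Htt knock-in on accessibility. Of the 23091 tested intergenic peaks, 1269 rose (5.50%) and 1649 fell (7.14%), against 4.2% and 6.11% of all 146155 tested peaks. The excess of lower calls was absent when scaled by total counts (1509 higher and 1501 lower), without WT F3 (1201 and 1153) and without Q140 F1 (1433 and 1412). Narrow peaks in introns within the same distance gave 4.02% higher and 6.63% lower, and promoters 1.84% and 1.47%. Intergenic peaks over 100 kb from a start gave 12.8% higher and 8.60% lower. The intergenic peaks near starts thus lay between introns and remote intergenic peaks in the share that rose. Their median log2 fold change was 0.02, beside -0.01 for all tested peaks. Called changes had a median of 0.76 upward and -0.71 downward, and 302 rose and 251 fell by more than 1 on that scale. Without Q140 F2 and Q140_Msh3KO M1, 1089 rose and 1467 fell, and 2458 of the 2918 called peaks remained called.

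**Figure D1:**
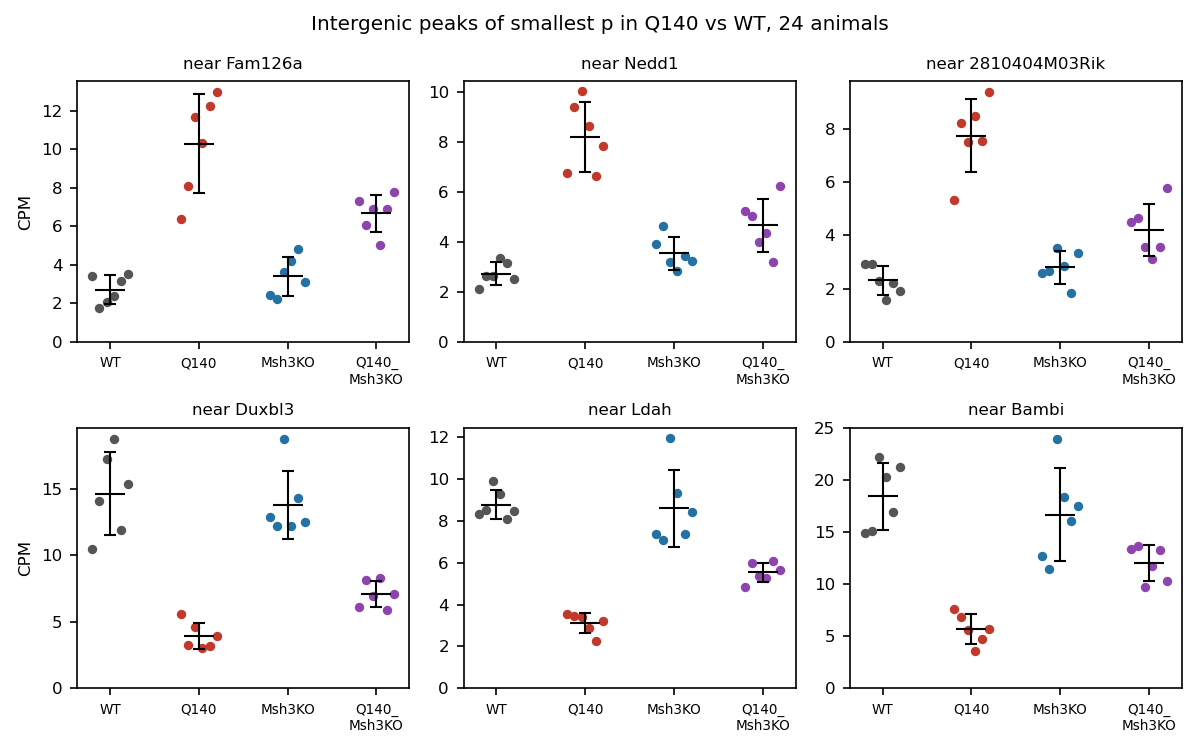
Accessibility in CPM (vertical axes) at the 3 higher and 3 lower intergenic peaks of smallest p in Q140 vs WT, 1 point per animal, 6 animals per genotype, with the mean as a line and the SD as error bars. Q140 and WT do not overlap in any panel, which the choice by smallest p favours. The Msh3KO mean lies nearer to WT than to Q140 in each panel, but shifted from WT toward Q140. The Q140_Msh3KO mean lies between WT and Q140, and the choice by smallest p favours both. At the peak near Fam126a the means are 2.71, 10.3 and 6.67 CPM in WT, Q140 and Q140_Msh3KO.

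The 12 named higher peaks, those of smallest p, had a median WT mean of 2.45 CPM, beside 3.23 over all tested intergenic peaks. A peak 17.6 kb upstream of Fam126a, which encodes hyccin, a partner of the phosphatidylinositol 4-kinase complex (chromosome 5, 24047971 to 24048631, GRCm38, as for all positions), held 1.76 to 3.51 CPM in WT, median 2.76, and 6.38 to 13.0 in Q140, median 11.0. Its log2 fold change was 1.90 ± 0.18 (SE, adjusted p = 7.7e-10). This peak lay within 20 Mb of Htt, where the knock-in and the DNA linked to it cannot be told apart. In that window 14 of 437 intergenic peaks rose and 30 fell, or 10.1% called, against 12.7% outside it. Next came a peak 69.1 kb downstream of the start of Nedd1, a centrosomal protein gene (chromosome 10, 92652890 to 92653751), which held 2.11 to 3.36 CPM in WT, median 2.63, and 6.61 to 10.01 in Q140, median 8.23 (1.61 ± 0.17, adjusted p = 7.1e-09). Near the uncharacterised 2810404M03Rik (chromosome 8, 41771839 to 41772657) the ranges were 1.58 to 2.94 and 5.32 to 9.39 CPM (1.72 ± 0.18). The peak 19.9 kb upstream of Hyal6, of the hyaluronidase family, held 2.38 to 5.87 CPM in WT and 8.39 to 14.1 in Q140 (1.60 ± 0.17), with Q140 F1 the lowest of its group. At all of these every Q140 animal lay above every WT animal, which the choice by smallest p in the same libraries favours. Of all 1269 higher peaks, 554 (43.7%) had no overlap between the groups, which their call in the same libraries favours. The like share over all tested peaks was not computed, so 43.7% is not a trait of the intergenic peaks. The peak near 4921533I20Rik gave 1.90 ± 0.21, and that near Kynu, which encodes kynureninase of tryptophan breakdown, 1.69 ± 0.18. Peaks near Tmprss15 (enteropeptidase), Nell2 (a secreted neuronal glycoprotein), Oscar (an immune receptor), Slc9a9 (an endosomal sodium and proton exchanger), 4930518J21Rik and Tmem252 gave 1.29 to 1.58. The 12 named higher peaks lay 17.6 to 95.6 kb from the start, 9 of them upstream.

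The 12 named lower peaks had a median WT mean of 10.02 CPM. The smallest p belonged to a peak 44.1 kb downstream of the start of Duxbl3, a double homeobox gene with near-identical copies on the same chromosome (chromosome 14, 26306284 to 26306893). There WT animals held 10.4 to 18.8 CPM, median 14.7, and Q140 animals 3.02 to 5.55, median 3.605, a log2 fold change of -1.88 ± 0.16 (adjusted p = 8e-11). How reads that fit several copies were treated is not given in the sources used here. A second peak close by, 14.4 kb upstream of 4933413J09Rik, fell by 1.48 on the same scale. At 60.8 kb upstream of Ldah, which encodes a hydrolase of lipid droplets (chromosome 12, 8147075 to 8147658), WT animals held 8.09 to 9.92 CPM and Q140 animals 2.24 to 3.54 (-1.48 ± 0.15, adjusted p = 3.1e-09). A peak 43.8 kb upstream of Bambi, a decoy receptor that dampens TGF-beta signals (chromosome 18, 3463736 to 3464503), held 14.9 to 22.2 and 3.59 to 7.68 CPM (-1.69 ± 0.16, adjusted p = 3.6e-09). No WT animal overlapped a Q140 animal at any of the 12, which the choice by smallest p again favours. Of all 1649 lower peaks, 792 (48.0%) had no overlap, which their call in the same libraries favours, and the like share over all tested peaks was not computed. The steepest of the 12 lay near 1700030C10Rik at -2.07 ± 0.22, where Q140 animals held 0.708 to 1.65 CPM. Others lay near A330102I10Rik (-1.61), Gdap10 (-1.49), Gm34637 (-1.78), Rasal2, a Ras GTPase-activating protein (-1.39), Slc6a6, the taurine transporter (-1.43), and Celf2, an RNA-binding splicing factor (-1.64).

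Higher and lower peaks differed in where they lay and how open they were. Within 2 kb of a start 2.23% of the intergenic peaks rose (Wilson 95% interval 1.33% to 3.70%, counting error only) and 7.95% fell (6.08% to 10.3%). From 50 to 100 kb out 7.41% rose (6.76% to 8.11%) and 7.48% fell (6.83% to 8.19%). The share that rose was 4.12%, 2.84%, 4.92% and 6.21% at 2 to 5, 5 to 10, 10 to 25 and 25 to 50 kb, while the share that fell lay between 6.29% and 8.88%. Under 2 kb 1.27% rose without WT M2, and at 5 to 10 kb 1.86% rose without Q140 F2. Without WT F3 5.25% and 5.01% fell in these distance classes. Neighbouring peaks are not independent, so these intervals are too narrow. With the peaks split by mean level into 4 classes of like size, 14.1% of the most open class fell and 5.58% rose, against 1.85% and 4.12% of the least open, where fewer counts leave less precision. The distance pattern of higher peaks was present within each level class. Under 10 kb, 2.16%, 2.75%, 4.31% and 3.20% rose from the least to the most open class, and at 50 to 100 kb 5.19%, 8.39% and 8.33% did in the first 3 and 108 of 1350 peaks in the most open. It was present on both sides of the start, with 3.30% and 7.86% upstream and 2.47% and 6.87% downstream for the same distances. By width, 12.6% of the widest of 4 classes fell and 7.27% rose, against 1.66% and 2.65% of the narrowest. The median level was 7.56 CPM in the widest class and 1.70 in the narrowest. Peaks nearest to a noncoding RNA gene rose at 6.79% and fell at 7.65%, and those nearest to a protein-coding gene at 5.15% and 7.01%. Across the 19 chromosomes the share that rose ran from 3.38% on chromosome 4 to 8.43% on chromosome 16, and the share that fell from 5.52% on chromosome 14 to 10.03% on chromosome 18.

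**Figure D2:**
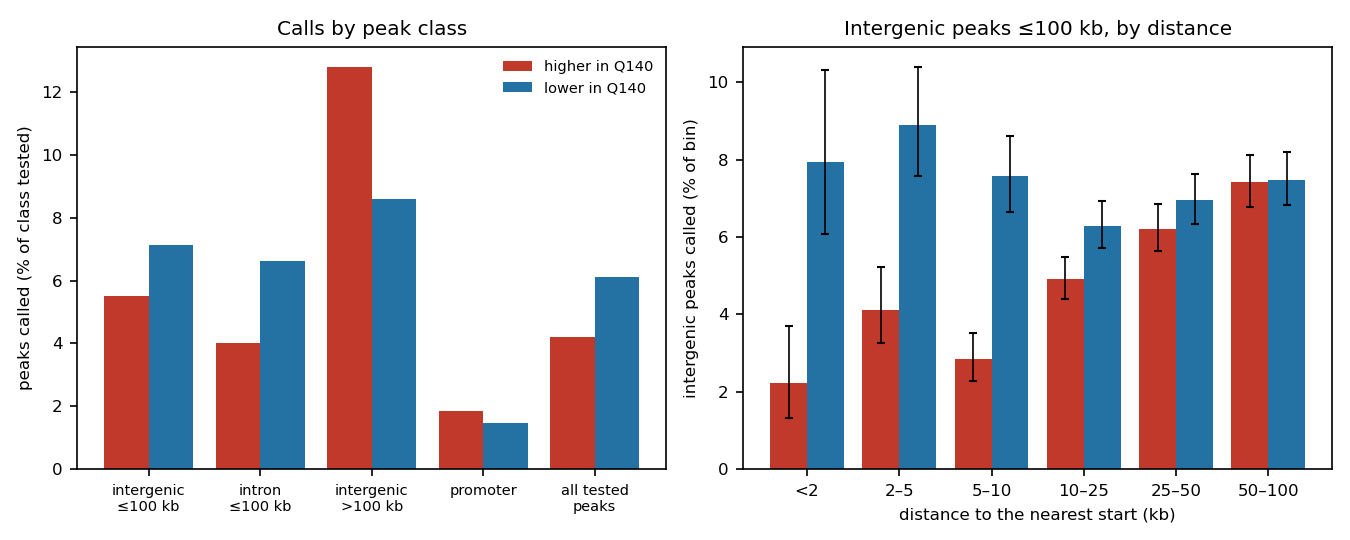
Share of peaks called higher or lower in Q140 vs WT (vertical axes, percent), left by peak class and right for the intergenic peaks by distance to the nearest start, where error bars are Wilson 95% intervals. Intergenic peaks over 100 kb out have the tallest higher bar at 12.8%, and within 100 kb the higher bars go from 2.23% nearest the start to 7.41% farthest out, with a dip at 5 to 10 kb, while the lower bars lie between 6.29% and 8.88%.

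Called peaks that lay close together mostly changed the same way. Of 121 pairs of neighbouring called peaks under 5 kb apart, 106 (87.6%) shared a direction, 32 both higher and 74 both lower. The share was 76.5% of 238 pairs at 5 to 20 kb, 62.2% of 442 at 20 to 100 kb, 56.9% of 1342 at 100 kb to 1 Mb and 52.4% of 756 beyond that. Neighbours can share reads from the same open region and belong to the same nearest gene. By nearest gene, 1086 genes had a higher peak, 1379 a lower one and 149 both. At 162 genes at least 2 peaks rose, and at 210 genes at least 2 fell. Slc9a9 had 4 of its 5 peaks higher within 55.3 kb on chromosome 9, at log2 fold changes of 0.68 to 1.56. All 3 peaks of 4933430M04Rik rose, from 0.78 to 2.04, and 3 of 4 did at Adamts3, a procollagen protease gene, and at Eif4g3, a translation initiation factor gene. In the lower direction Gm7538 had 5 of 7 peaks on chromosome 5 (-1.37 to -0.48) and 4933406K04Rik 5 of 14 on chromosome 12 (-0.98 to -0.38). At Lrrc6, needed for motile cilia, all 4 peaks fell, by -1.06 to -0.61, and at 2410141K09Rik 4 of 6 did, by -2.06 to -1.26.

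**Figure D3:**
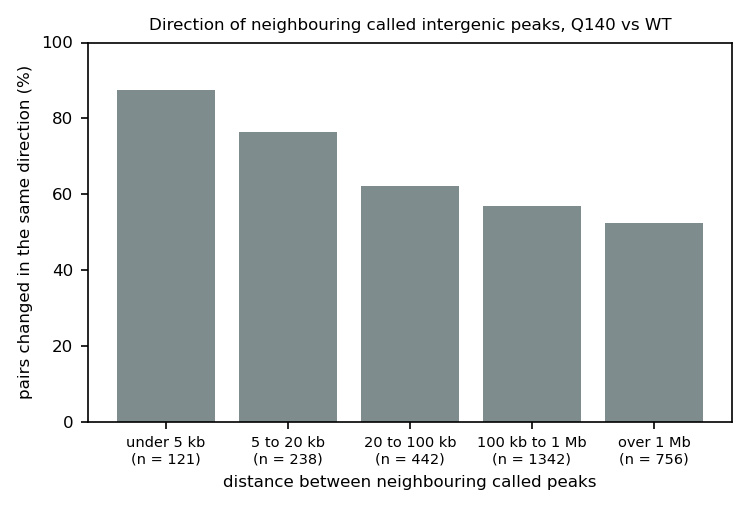
Share of neighbouring pairs of called intergenic peaks that changed in the same direction in Q140 vs WT (vertical axis, percent) by the distance between them, with the number of pairs under each bar. The share falls from 87.6% under 5 kb to 52.4% beyond 1 Mb.

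The peaks were then read by what their nearest genes do, over 13 gene lists. Over all tested intergenic peaks 5.50% rose and 7.14% fell, or 12.6% called. Peaks named in the next paragraphs for more than the smallest p of a list were picked after their values were seen. SPN identity genes had 148 peaks, of which 18 fell and 5 rose, while 125 missed the threshold, with a median log2 fold change of -0.07 beside 0.02 for all intergenic peaks. The strongest loss stood 1.6 kb upstream of Ryr1, which releases calcium from intracellular stores, where WT held 4.397 to 7.87 CPM and Q140 2.26 to 2.87 (-1.27 ± 0.17, adjusted p = 7.7e-07). Bcl11b, the transcription factor Ctip2 of striatal projection neurons, lost 2 peaks (-0.96 and -0.71), and Penk, the enkephalin precursor of indirect-pathway neurons, lost 3 (-0.94, -0.62 and -0.46). Single peaks near Mef2c, Drd1, Rgs9, Scn4b and Adcy5 fell by 0.55 to 0.86. Tac1, the substance P precursor of direct-pathway neurons, went the other way at a peak 44.4 kb from its start, with 3.22 to 5.17 CPM in WT and 5.79 to 10.2 in Q140 (1.09 ± 0.17). A peak near Cnr1, the cannabinoid receptor, rose by 1.42, and peaks near Isl1, Kcnj4 and Six3 rose too.

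Genes of cAMP and dopamine signalling had 13 lower and 4 higher of 126 peaks, with a median of -0.04. The lower count was 7 or 8 without Q140 F1 or M2 or WT F3 or M1. Examples are Pde4b, a cAMP phosphodiesterase (-0.95 ± 0.21, 2.47 to 4.22 CPM in WT and 1.27 to 2.26 in Q140), Rgs8 (-0.82), Gnao1 (-0.72 and -0.46) and Adcy9 (-0.65). A peak 49.6 kb upstream of Adcy2, an adenylyl cyclase, rose by 1.16 ± 0.22. Among glutamate receptors and postsynaptic scaffolds 12 of 103 peaks fell and 7 rose, but 6 or 7 fell without Q140 M1 or M2 or WT F3 or M1, and 4 rose without WT M2. A peak near the NMDA receptor subunit gene Grin2b held 4.10 to 6.22 CPM in WT and 1.15 to 3.36 in Q140 (-1.09 ± 0.19), and peaks near Slitrk1 (-1.26) and Nrxn3 (-1.23 and -0.87), both synaptic adhesion molecules, fell as well, while another near Nrxn3 rose (0.70). Camk2b rose by 0.85 ± 0.16, and Shank2, a postsynaptic scaffold, rose at 3 peaks (0.51 to 0.69). Potassium, calcium and sodium channels had 20 lower (11 without WT F3) and 14 higher of 228 peaks, or 14.9% called, beside 12.6% of all. Among them were Kcnt1 at -1.09 ± 0.17 and Kcnv1, a modifying potassium channel subunit, at 1.31 ± 0.20. Kcnd2 had a peak in each direction (1.17 and -0.63).

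Activity-regulated genes, which respond to neuronal firing, had 12 lower and 8 higher of 176 peaks. That is 11.4% called, beside 12.6% of all tested intergenic peaks. Neither direction exceeded the shares of all, 7.14% lower and 5.50% higher. The lower count was 5 to 7 without Q140 F1, M1 or M2 or WT F3 or M1, and the higher count 5 without Q140 F2 and 13 without WT F2. Egr4 led the losses, with 3.02 to 6.30 CPM in WT and 1.51 to 2.44 in Q140 (-1.32 ± 0.20), and peaks near Egr1, Nr4a1, Fosb, Scg2 and Homer1 fell by 0.45 to 0.80, while a second Scg2 peak rose by 0.64. With scaling by total counts the list had 9 higher and 8 lower. Ccn1, a matrix signalling protein, had 2 higher peaks (1.55 and 1.18). Axon guidance and cadherin genes had 10 higher and 8 lower (5 without WT F3) of 109 peaks, with Pcdh15 at 1.76 ± 0.26, Epha4 at 1.17 and 0.68, and Ephb1 at -0.75 ± 0.16. Polycomb-target developmental regulators, genes kept silent in mature neurons by Polycomb complexes, had 12 higher and 6 lower of 232 peaks, with a median of 0.12. Of the list's peaks 7.76% were called, below the 12.6% of all tested intergenic peaks. The share that rose did not exceed the 5.50% of all. Next to Cbx8, itself a Polycomb subunit, 2 peaks rose (1.05 and 1.01), one of them 11.2 kb upstream with 5.35 to 7.53 CPM in WT and 11.0 to 14.7 in Q140. The homeobox and forkhead genes Emx2 (1.24), Gsx2 (0.99), Pax2 (1.37), Tlx1 (0.80) and Foxa1 (1.00 and 1.35) gained peaks too, while Gata2 (-0.81), En2 (-0.77) and Barx1 (-0.68 and -0.60) lost them. The SPN, cAMP and Polycomb lists kept the order of their higher and lower counts under the 3 other scalings tried.

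**Figure D4:**
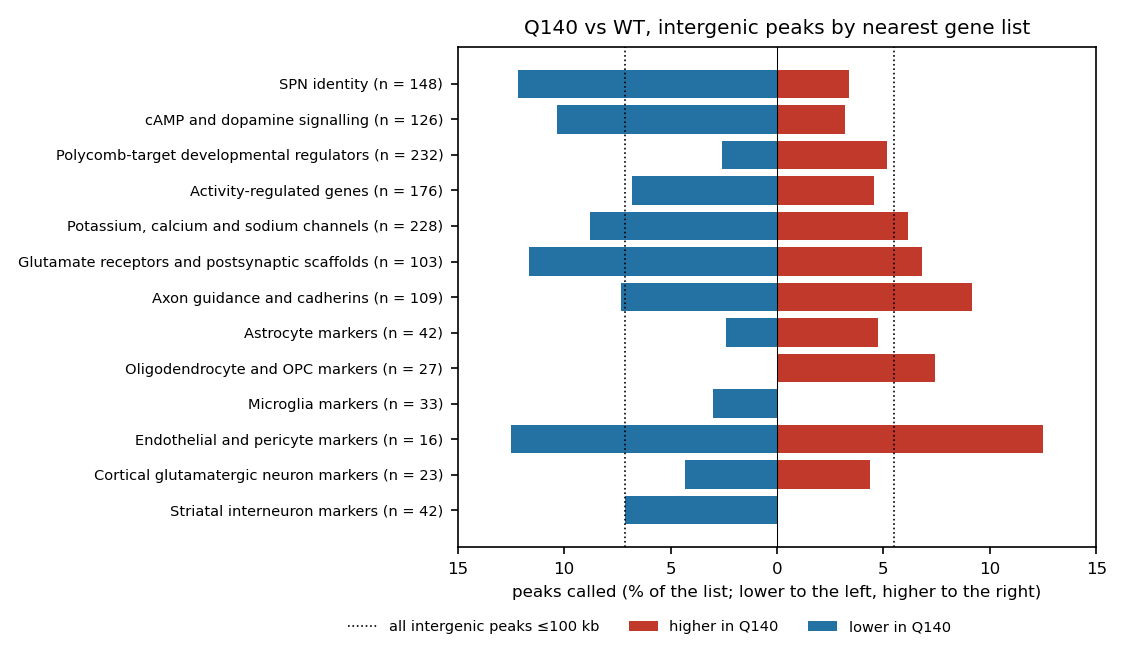
Share of the intergenic peaks of each gene list that were called lower (left) or higher (right) in Q140 vs WT (horizontal axis, percent), with the number of tested peaks beside each name and dotted lines at the 7.14% and 5.50% of all intergenic peaks. SPN identity reaches 18 lower and 5 higher peaks of 148, and the Polycomb list 6 lower and 12 higher of 232.

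Markers of other cells were read the same way, beside 12.6% called over all tested intergenic peaks, and their part in the results above was not tested. With single libraries left out, each list had 0 to 3 higher and 0 to 4 lower. Astrocyte markers had 2 higher and 1 lower of 42 peaks, all near Aqp4, the water channel, whose strongest peak, 76.9 kb from the start, held 2.57 to 5.24 CPM in WT and 4.49 to 11.4 in Q140, which overlap. Oligodendrocyte and OPC (precursor) markers had 2 higher of 27 (Ermn and Mobp), microglia markers 1 lower of 33 (Irf8, -0.73 ± 0.23, its call lost in 6 fits without a single library and without Q140 F2 and Q140_Msh3KO M1), endothelial and pericyte markers 2 of each of 16, or 25% called (both higher peaks near Kdr, 1.03 and 1.35), and cortical glutamatergic markers 1 of each of 23. Striatal interneuron markers had 3 lower of 42, near Pvalb, Npy and Sst, and the Pvalb peak held 2.93 to 5.47 CPM in WT and 1.65 to 3.19 in Q140 (-1.001 ± 0.19). The summed promoter level of interneuron markers was 10.7 to 16.9 CPM in WT and 12.1 to 19.4 in Q140.

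Few intergenic peaks passed the test for lack of Msh3 alone. In Msh3KO vs WT 1 peak rose (0.00433%) and 2 fell (0.00866%), against 0.00684% and 0.00616% of all tested peaks. An unadjusted p under 0.05 (edgeR) was found at 877 of the 23091, beside 4875 of all 146155 tested peaks. All 3 called peaks lay on chromosome 13 within 20 Mb of Msh3, among 391 intergenic peaks in that window. A peak 26.9 kb upstream of Zfp366, a zinc finger gene, held 5.21 to 8.55 CPM in WT and 2.25 to 3.61 in Msh3KO (-1.16 ± 0.16, adjusted p = 0.00014). The peak that rose, near Tmem174, held 1.17 to 2.49 CPM in WT and 2.73 to 4.65 in Msh3KO (1.07 ± 0.21, adjusted p = 0.0389), and it lost its call when any of 10 single libraries was left out. The allele and the DNA linked to it cannot be told apart at these 3.

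Comparing Q140_Msh3KO with Q140 addresses the loss of Msh3 where the knock-in is present. Of the intergenic peaks 91 rose (0.394%) and 61 fell (0.264%), against 0.31% and 0.219% of all tested peaks. Outside the window around Msh3 the counts were 85 and 56, and inside it 6 and 5. The gain of smallest p was in that window, 88.0 kb upstream of Map1b, a microtubule-associated protein gene, where Q140 held 2.36 to 4.31 CPM and Q140_Msh3KO 6.05 to 10.3 (1.33 ± 0.18, adjusted p = 1.6e-05), and Msh3KO animals held 5.76 to 10.6 there. Losses near Zfp366 (-1.41 ± 0.17), 6430562O15Rik (-1.38 ± 0.21) and Crhbp (-0.93 ± 0.16) lay in it too. At these the levels in Q140 did not pass the test against WT, with log2 fold changes of -0.10, 0.19 and 0.08.

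Outside that window WT values are given beside the others, since this comparison and Q140 vs WT share the Q140 libraries. The Bambi peak held 3.59 to 7.68 CPM in Q140 and 9.79 to 13.7 in Q140_Msh3KO (1.06 ± 0.17, adjusted p = 0.00063), below the 14.9 to 22.2 of WT. Near Npbwr1, a neuropeptide receptor gene, Q140 held 1.89 to 3.31 CPM and Q140_Msh3KO 4.00 to 7.59 (1.08 ± 0.18), beside 3.81 to 6.71 in WT. Near Rhob, a small GTPase gene, the values were 3.83 to 5.31 and 6.69 to 12.3 CPM (0.88 ± 0.15), beside 7.41 to 12.2 in WT. Peaks near Hdac2, a histone deacetylase, Slc6a6, Ldah and Dmac1 were higher by 0.81 to 1.08, beside changes of -1.17, -1.43, -1.48 and -1.75 in Q140 vs WT. Among peaks that fell, one 86.7 kb from the start of Lratd1 held 5.60 to 7.99 CPM in Q140 and 2.19 to 4.69 in Q140_Msh3KO (-1.05 ± 0.17, adjusted p = 0.00058), beside 2.49 to 3.95 in WT. Losses were also called near Emx2 (-0.96 ± 0.16), Cbx8 (-0.79 ± 0.13), Gsx2 (-0.93 ± 0.16) and Pax2 (-1.74 ± 0.31, not called with DESeq2), where the changes in Q140 vs WT were 1.24, 1.05, 0.99 and 1.37. Of the 232 Polycomb-list peaks 9 fell (3.88%) and 0 rose here, near Emx2, Cbx8, Gsx2, Pax2, Onecut2 (2 peaks), Hoxc4, Tlx1 and Hoxb13. The list median was -0.16 beside -0.00 for all intergenic peaks, of which 0.264% fell. This list was chosen with earlier results of these data known, and its count here was not tested with libraries left out. SPN identity had 1 higher peak (Mef2c, 0.84) and 0 lower of 148, or 0.676% called, beside 0.658% of all tested intergenic peaks.

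The counts over all intergenic peaks in Q140_Msh3KO vs Q140 depended on single libraries. Without Q140_Msh3KO M1 39 rose and 27 fell, without Q140 F2 29 fell, and without both 18 rose and 12 fell, all 30 among the 152. The number that rose was 48, 35 and 50 without Q140 M1, M2 and M3, and 53, 38 and 36 without Q140_Msh3KO F1, F2 and M2. The number that fell was 26, 33 and 37 without Q140 F3, M2 and M3, and 26, 32 and 99 without Q140_Msh3KO F2, M2 and M3.

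The Q140 effect was next read in animals without Msh3, from Q140_Msh3KO and Msh3KO libraries. These are in neither genotype of Q140 vs WT, though all 24 libraries share the scaling, the filter and the estimate of spread. Of the 1269 higher peaks, 1090 (85.9%, Wilson 95% interval 83.9% to 87.7%, counting error only) were also higher in Q140_Msh3KO than in Msh3KO. Their median log2 fold change was 0.24 with a jackknife SE of 0.07 over 12 animals, against 0.76 in the animals with Msh3. Of the 1649 lower peaks 1564 (94.8%, 93.7% to 95.8%) were also lower, with a median of -0.28 ± 0.10 against -0.71. The peaks were chosen by their p in the animals with Msh3, and how far that choice widens the gap was not tested. Among all tested intergenic peaks 48.6% were above 0. By size, peaks past 1 in Q140 had medians of 1.19 with Msh3 and 0.40 without, and peaks past -1 had -1.16 and -0.53. Over all 23091 peaks the 2 log2 fold changes had a Pearson r of 0.48 and a Spearman rho of 0.43, across peaks that share libraries and depth within each comparison. Median levels of the higher peaks were 2.73, 4.75, 3.08 and 3.73 CPM in WT, Q140, Msh3KO and Q140_Msh3KO, and those of the lower peaks 6.57, 3.84, 6.21 and 5.16. At each of the 24 peaks named for Q140 vs WT the Q140_Msh3KO mean lay between the WT and Q140 means, which their choice by smallest p favours.

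**Figure D5:**
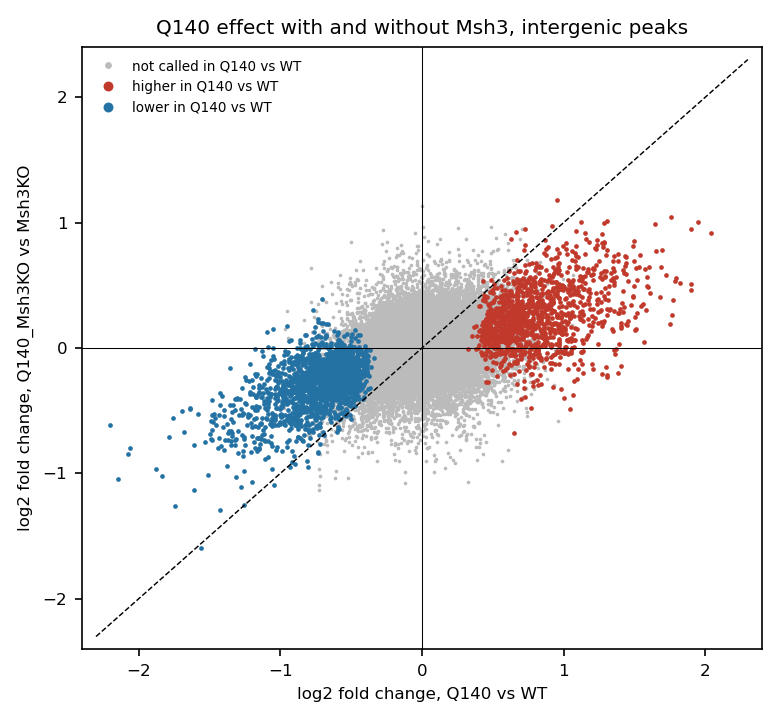
Log2 fold change of each tested intergenic peak in Q140 vs WT (horizontal axis) and in Q140_Msh3KO vs Msh3KO (vertical axis), with peaks called higher or lower in Q140 vs WT in colour and a dashed line of equal effect. The coloured peaks lie on the same side of 0 on both axes at 85.9% (higher) and 94.8% (lower), with medians of 0.24 and -0.28 on the vertical axis against 0.76 and -0.71 on the horizontal.

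Few of them passed the test on their own without Msh3. In Q140_Msh3KO vs Msh3KO 6 rose (0.026%) and 26 fell (0.113%), against 0.0233% and 0.0924% of all tested peaks. All 6 had risen and all 26 had fallen in Q140, and 0 were called in the opposite direction. The smallest p belonged to a peak 69.6 kb upstream of Zfp704, a zinc finger gene (chromosome 3, 9679212 to 9680063), with 14.9 to 24.9 CPM in Msh3KO and 6.00 to 10.4 in Q140_Msh3KO (-1.11 ± 0.14, adjusted p = 0.00012). Its change with Msh3 present was -1.27 ± 0.15. A peak 28.0 kb upstream of Mroh9 (chromosome 1, 163113201 to 163114062) held 4.21 to 6.20 and 8.54 to 14.7 CPM (1.00 ± 0.14, adjusted p = 0.00033), beside 1.12 ± 0.14 with Msh3. At both the groups did not overlap, and the difference between the backgrounds did not pass the interaction test (0.16 for Zfp704 and -0.12 for Mroh9, adjusted p = 0.946 and 0.964). The peaks near Duxbl3 (-0.96 ± 0.15), Xkr5 (-1.29 ± 0.20), Gm11468 (-1.01 ± 0.18), Fam126a (0.95 ± 0.18), Kcnv1 (1.02 ± 0.20), Zfp608 (1.18 ± 0.24) and Snhg3 (0.95 ± 0.20) were also called. Fam126a lies within 20 Mb of Htt, where 1 of 437 intergenic peaks rose and 2 fell (0.686% called), against 0.128% outside that window. With single libraries left out, Snhg3 lost its call in 10 fits, Zfp608 in 7, Kcnv1 in 4, Fam126a in 2 and Gm11468 in 1. Fitted on the 2 genotypes alone, all of these but Fam126a lost it, and Snhg3 lost it under the replicate block. Left out singly, Q140_Msh3KO M3 left 1 and 4 calls, Q140_Msh3KO M1 gave 14 higher and Msh3KO F2 62 lower. The higher count was 2 or 3 without Msh3KO F1, M1 or M3 or Q140_Msh3KO F1 or M2. The lower count was 7 to 14 without Msh3KO F3, M1, M2 or M3 or Q140_Msh3KO F1, F3 or M2. Fitted on the 2 genotypes alone, 2 rose and 6 fell.

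Against WT, from which it differs by both alleles, Q140_Msh3KO had 62 higher (0.269%) and 97 lower (0.420%) intergenic peaks, against 0.252% and 0.274% of all tested peaks. The gains of smallest p were the peaks near Mroh9 (0.99, adjusted p = 0.00013), Fam126a (1.28, adjusted p = 0.00014), Kynu (1.27, adjusted p = 0.00029), Fam81b (1.11) and Tmem174 (1.21). Of these, Fam81b and Tmem174 lay within 20 Mb of Msh3, and Fam126a within 20 Mb of Htt. Around Msh3 5 of 391 intergenic peaks rose and 8 fell (3.32% called), against 0.643% outside that window. The alleles and the DNA linked to them cannot be told apart in these windows. Zfp366 (-1.51), in the Msh3 window, Duxbl3 (-1.03), Zfp704 (-0.91) and Gm10654 (-1.10) were among the losses of smallest p. The higher count fell to 38, 41, 23, 40, 37 and 25 without Q140_Msh3KO F1, F2 or M3 or WT F3, M1 or M3. The lower count fell to 43, 39, 52 and 19 without Q140_Msh3KO F1, F3, M2 or M3, and to 36, 44 and 38 without WT F3, M1 or M3.

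The difference between the Q140 effects without and with Msh3 was tested as an interaction. It passed at 2 intergenic peaks upward (0.00866%) and 1 downward (0.00433%), against 0.00958% and 0.013% of all tested peaks. An unadjusted p under 0.05 (edgeR) was found at 1936 of the 23091, beside 10696 of all 146155 tested peaks. The 3 called peaks lay near Bambi (1.19), Rhob (1.09) and Emx2 (-1.21). Near Rhob the Q140 effect was -1.08 ± 0.15 with Msh3 and 0.01 ± 0.15 without, and near Emx2 1.24 ± 0.17 and 0.03 ± 0.18. Each lost its call in at least 16 of the alternatives, among them the 2 libraries left out together, where 0 remained. By edgeR and by DESeq2, 0 intergenic peaks passed the test for a Q140 effect that differs between females and males. Of all tested peaks 0% passed in either direction. An unadjusted p under 0.05 (edgeR) was found at 717 of the intergenic peaks, beside 4806 of all 146155 tested peaks. The test rests on 3 animals per sex and genotype. Q140 F2, labelled female, had 1.47% of its counts on X, below the 1.49% to 1.59% of males.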

How the data were processed

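ATAC-seq libraries of NeuN-positive striatal nuclei from 24 animals were deposited as 1 table of raw read counts per peak, and the authors' counts were used as deposited. The submitters' processing notes name GRCm38 with the tools BWA, featureCounts, MACS2, Picard and SAMtools. Their versions, read filters and any shift of cut sites were not given in those notes. Peak class, nearest gene and distance to its start come from the same table, per the file headers. No column of values went unused (0 other columns).

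All 146155 peaks kept by filterByExpr (count minimum 10) entered the edgeR fit (version 4.0.16, R 4.3.3): TMM scaling, robust quasi-likelihood fit on all 24 libraries with genotype and sex, and Benjamini-Hochberg adjustment over all tested peaks at 0.05. SEs are the log2 fold change over the square root of F. CPM is at the TMM library size. Animals of a genotype were the replicates, with 60 pairs compared and 0 identical. The titles do not say that replicate numbers mark a shared litter or day, so the main fit did not pair animals. Same-number deviations across genotypes correlated at -0.44 to 0.39, with 11 of 36 pairs over 0.1. RefSeq tables are GRCm38.p6. No genome was used, so peak sequence outside RefSeq start windows was not analysed here.

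The peaks and gene lists were chosen with earlier results of these data known. Peaks were named by smallest p, 1 per nearest gene: 12 per direction for Q140 vs WT, 8 for Q140_Msh3KO vs Q140, 5 for other comparisons, the 6 highest in WT, and the smallest p per gene list and direction. Some peaks that this rule names are not reported here, though they stay in the counts. Alternatives were DESeq2 1.42.0, its size factors, scaling by total counts, TMM on the intergenic peaks, no filter, no sex term, the compared genotypes only, a replicate block, and leaving out each library. The script was tested on simulated data.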

Additional observations from a re-analysis of the deposited data

Results flagged for a closer look

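At 3 intergenic peaks the Q140 effect differed between animals with and without Msh3 by the interaction test: near Rhob the difference was 1.09 on the log2 scale, near Bambi 1.19 and near Emx2 -1.21.

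In 16 of 320 groups of 6 animals at the named peaks, 1 animal stood apart from the rest, where chance alone gives about 1 in 20. In Q140, F1 was lowest near Hyal6 (8.39 CPM, next 12.2), Kcnv1 (2.24, next 3.83) and Cux2 (6.02, next 7.90), and M1 was highest near Dmac1 (4.88, next 3.42). In Q140_Msh3KO, M1 was highest near Gm34637 (4.61, next 3.28), BC048403 (2446 CPM, next 630) and both peaks near 9230019H11Rik (209.6 and 209.9, next 110.6 and 111.2). Q140_Msh3KO M3 was highest near Tmprss15 (6.56, next 4.69) and Aqp4 (10.8, next 6.60) and lowest near Slc6a6 (6.00, next 8.46). Q140_Msh3KO F3 was lowest near Hdac2 (6.80, next 9.96) and F2 highest near Irf8 (4.42, next 2.65). Msh3KO F3 was highest near Duxbl3 (18.8, next 14.3), WT M1 near Rn4.5s (95.6, next 70.9) and WT F1 near Kdr (5.05, next 3.53).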

How the results depend on the processing

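The Q140 vs WT counts moved by less than 1.5 times under all alternatives, though their order reversed with scaling by total counts, without WT F3 and without Q140 F1: 920 to 1464 higher and 1153 to 1875 lower with each library left out. DESeq2 shared 2600 of the 2918 calls and the replicate block 2835. Of 89 named results 77 kept their call under all alternatives run, 12 lost it under at least 1, and 0 reversed. With single libraries left out, Msh3KO vs WT gave 0 to 1 higher and 2 to 4 lower, Q140_Msh3KO vs Q140 35 to 132 and 26 to 99, Q140_Msh3KO vs Msh3KO 1 to 14 and 4 to 62, Q140_Msh3KO vs WT 23 to 91 and 19 to 122, and the interaction 0 to 16 and 0 to 9. The shares of Q140 peaks with the same direction without Msh3 ran from 81.1% to 89.6% for higher and 86.5% to 96.3% for lower peaks. The cause of these shifts was not tested.

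In Msh3KO vs WT the higher count was 0 under TMM on the intergenic peaks, no sex term, the compared genotypes only, scaling by total counts and without Q140 F2 and Q140_Msh3KO M1, and the lower count was 5 with DESeq2 and 4 with no filter or no sex term. Without those 2 libraries Q140_Msh3KO vs Q140 gave 18 higher and 12 lower, Q140_Msh3KO vs Msh3KO 10 higher, the interaction 0 and 0, and the same-direction share of higher peaks 91.0%, an alternative chosen after seeing the data. With the compared genotypes only, Q140_Msh3KO vs Msh3KO gave 2 and 6, and the same-direction shares were 87.9% and 92.6%. With TMM on the intergenic peaks they were 88.3% and 92.5%. Interaction counts were 10 higher and 7 lower with DESeq2, 4 and 2 with TMM on the intergenic peaks, and the lower count was 0 with DESeq2 size factors, 4 with total counts and 3 with the replicate block. Deviations correlated over 0.1 in 11 of 36 same-number and 16 of 72 other-number pairs, and 18 of 24 libraries correlated more with their own number. Whether animals of the same number shared a litter or day was not tested. With a block by replicate number, 2835 of the 2918 Q140 vs WT calls were kept. Counts limit the least open peaks most, where 15 to 39 counts per peak and library were typical over all the intergenic peaks.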
